A study of Drosophila melanogaster with 12 samples.

Results

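*Arc1*, *Arc2*, *Hr38* and *sr* are 4 fly genes known as activity-regulated, and they were examined here in head RNA-seq from a *Drosophila* Alzheimer's disease (AD) model. They were taken by symbol from a count table of 14162 genes, and all 4 passed the filter on low counts that kept 10577 genes. The genes were chosen by name with earlier results of these samples in view, in which their counts and the differences between the same groups had already been seen, so their levels and differences are given as a description, without a test. Each of the 4 groups had 3 samples, and each sample was a pool of heads from mated females kept at 29 °C.

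All groups carried the pan-neuronal driver *nSyb-Gal4*. Control flies (nSyb>w1118) had the driver without a UAS transgene. AD flies (nSyb>Abeta42) expressed human Aβ42 in neurons, in the AD model of the study the Arctic form with the signal sequence of fly Argos for secretion. AD + Yip7 flies (nSyb>Abeta42+yip7) also expressed an HA-tagged form of the serine protease Yip7, and AD + Yip7∆S flies (nSyb>Abeta42+yip7_S) an HA-tagged Yip7 without its putative transmembrane domain, inserted at the same genomic site. AD flies carried 1 UAS transgene fewer than either Yip7 group, and no group expressed Yip7 without Aβ42, so an action of Yip7 apart from Aβ42 cannot be told apart here. The labels give 10 days of age for 11 samples and 14 days for replicate 3 of Control, where the study's methods give 10 days for all. They name the head as the tissue but also speak of brain dissection. Markers of photoreceptors summed to between 52109 and 75362 CPM (counts scaled to library size) over all samples and those of head fat body to between 75940 and 125943, so the libraries held head tissue outside the brain.

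Arc proteins descend from the Gag protein of a retrotransposon. In mammals Arc is a classic immediate-early gene of active neurons, and fly Arc1 assembles into capsids that carry RNA between cells at the larval neuromuscular junction. Fly Arc1 also affects metabolism and the behavioural response to starvation, and Arc2 is its close relative. *Hr38* encodes the only fly nuclear receptor of the NR4A type and *sr* (stripe) a zinc finger transcription factor of the EGR type, whose mammalian relatives are immediate-early genes. In insect brains transcripts of both rise after neuronal firing and serve as activity markers, and *sr* is also known for specifying tendon cells.

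*Arc1* (FBgn0033926) lies on chromosome 2R from 14357927 to 14360297 on the minus strand (dm6), and *Arc2* (FBgn0033928) from 14361924 to 14362825 on the plus strand. Each has 1 annotated transcript and no intron, with 2371 and 902 exon bases, and 1626 bases separate them. *Hr38* (FBgn0014859) spans 31127 bases of chromosome 2L (20683462 to 20714588, minus strand) with 7704 exon bases. *sr* (FBgn0003499) spans 44781 bases of chromosome 3R (18090803 to 18135583, plus strand) with 8113 exon bases. Per kilobase of exon, *Arc1* was by far the most abundant of the 4, at the 94.6th percentile of 10368 genes with a length. *Arc2* stood at the 51.8th percentile, *sr* at the 24.1st and *Hr38* at the 20.4th, on the same scale.

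**Figure D1:**
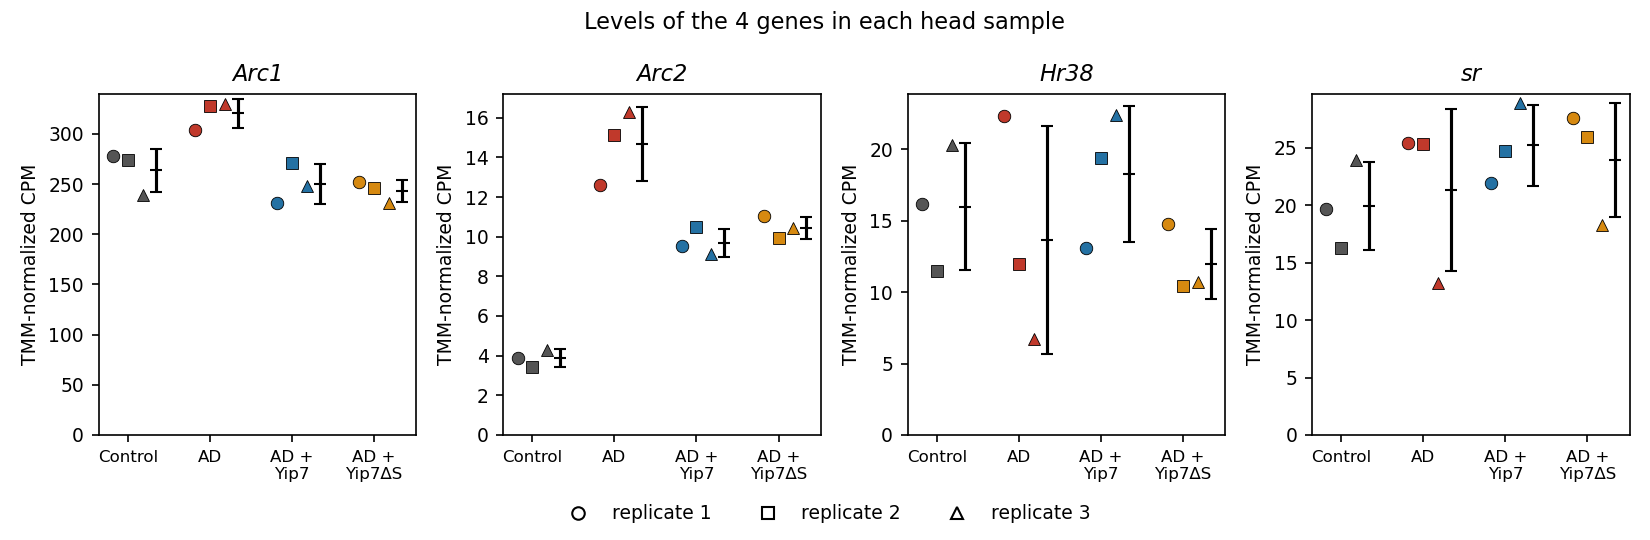
Levels of *Arc1*, *Arc2*, *Hr38* and *sr* (TMM-normalized CPM, linear axes from 0) in each head sample, with the group mean ± SD (n = 3) to the right of the points. The AD samples of *Arc1* and *Arc2* lie above every other sample, whereas the groups overlap for *Hr38* and *sr*.

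*Arc2* was the gene that differed most between the groups. Its level was 3.90, 3.41 and 4.29 CPM in the 3 Control samples, and 12.6, 15.1 and 16.3 CPM in the AD samples. In AD + Yip7 it was 9.51, 10.5 and 9.11 CPM, and in AD + Yip7∆S 11.03, 9.92 and 10.4 CPM. Every AD sample was therefore above every sample with either form of Yip7, and every one of those was above every Control sample, while the Yip7 groups overlapped each other. The plot of levels in each head sample shows this order for *Arc2*, with Control far below the rest.

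The group means of *Arc2* were 3.87 ± 0.444 CPM in Control, 14.7 ± 1.88 for AD, 9.70 ± 0.702 for AD + Yip7 and 10.5 ± 0.554 for AD + Yip7∆S (SD, 3 samples each). From Control to AD this is a log2 difference of 1.92 (SE 0.13), or 3.79-fold. Against AD the difference was -0.60 (SE 0.12) with Yip7 and -0.49 (SE 0.12) with Yip7∆S. Both comparisons use the same AD samples. Neither form of Yip7 went with a return to the Control level, since *Arc2* was still 2.51-fold higher than Control in AD + Yip7 (log2 difference 1.33, SE 0.13) and 2.70-fold higher with Yip7∆S (1.43, SE 0.13). AD + Yip7 and AD + Yip7∆S differed by -0.11 (SE 0.12), which is within 1 standard error. The lowest *Arc2* count was 141 in a Control sample, so counting alone gave an error of at most 8.42% in a sample.

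*Arc1*, its abundant neighbour, differed in the same directions by much less. Its level was 278, 274 and 239 CPM in Control and 304, 328 and 330 CPM in AD. In AD + Yip7 it was 231, 271 and 248 CPM, and in AD + Yip7∆S 252, 246 and 231 CPM. The AD samples were all above the other 9, and the Control and Yip7 samples overlapped one another.

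The group means of *Arc1* were 264 ± 21.3 CPM in Control, 320 ± 14.6 for AD, 250 ± 19.7 for AD + Yip7 and 243 ± 11.1 for AD + Yip7∆S (SD, 3 samples each). The log2 difference was 0.28 (SE 0.10) between AD and Control, or 1.22-fold. It was -0.36 (SE 0.10) between AD + Yip7 and AD and -0.40 (SE 0.10) between AD + Yip7∆S and AD. In contrast to *Arc2*, *Arc1* had in both Yip7 groups a level that overlapped Control, with log2 differences from Control of -0.08 (SE 0.10) and -0.12 (SE 0.10). AD + Yip7 and AD + Yip7∆S differed by 0.04 (SE 0.10), and this sign turned without AD + Yip7 replicate 2 (-0.02).

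These counts of non-overlapping groups have to be read against all genes tested. Between AD and Control, 44% of the 10577 genes had groups that did not overlap, 22.8% with AD higher, as for *Arc1* and *Arc2*, which are 2 of the 4 genes. Another 21.2% had AD lower. With Yip7 against AD the share was 20.8%, 10.8% with Yip7 lower and 10.1% higher, and with Yip7∆S it was 18%, 8.95% lower and 9.1% higher. Between the Yip7 groups it was 16.8%, 8.27% with the full-length form higher and 8.58% lower, with none of the 4 genes among them. For either Yip7 group against Control this share was not counted, so the separation of *Arc2* from Control in these groups cannot be set against all genes. At an adjusted p under 0.05 in edgeR's quasi-likelihood test over all genes, 26% of the genes differed between AD and Control (14.4% higher and 11.6% lower in AD), and 38.4% had an unadjusted p under 0.05. Against AD, 1.81% were called with Yip7 (0.945% higher and 0.86% lower) and 1.85% with Yip7∆S (0.87% higher and 0.983% lower), while 13.1% and 15.1% had an unadjusted p under 0.05. The full-length form differed from Yip7∆S in 0.0662% (0.0284% higher and 0.0378% lower), and 10.3% had an unadjusted p under 0.05. The median log2 difference of all genes lay within 0.02 of 0 in every comparison. These are bulk samples, in which a change in the number of cells of a type cannot be told apart from a change in RNA per cell.

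The ratio of the Arc genes to each other, which follows from the levels given above, differed between Control and the Aβ42 groups. There were 71.1, 80.5 and 55.7 *Arc1* reads for each *Arc2* read in the Control samples. In AD there were 24.1, 21.7 and 20.2, in AD + Yip7 24.3, 25.8 and 27.3, and in AD + Yip7∆S 22.9, 24.8 and 22.1. All 9 Aβ42 samples thus lay between 20.2 and 27.3, far below Control, with or without Yip7. Within this range every AD + Yip7 sample was above every AD sample, while AD + Yip7∆S overlapped both. How often ratios of other genes separate these groups was not counted. The means were 69.1 ± 12.5 in Control, 22.0 ± 1.93 for AD, 25.8 ± 1.48 for AD + Yip7 and 23.3 ± 1.35 for AD + Yip7∆S (SD, 3 samples each). Since *Arc1* and *Arc2* encode related proteins, reads that fit both genes could move this ratio, and how the authors counted such reads is not given in the sources used here. Over the 12 samples the log2 levels of *Arc1* and *Arc2* had a Pearson r of 0.35 and a Spearman rho of 0.45. After subtraction of the group means r was 0.14, and it was 0.53 without the 2 samples farthest from the median of *Arc1*, Control replicate 3 and AD + Yip7 replicate 1.

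**Figure D2:**
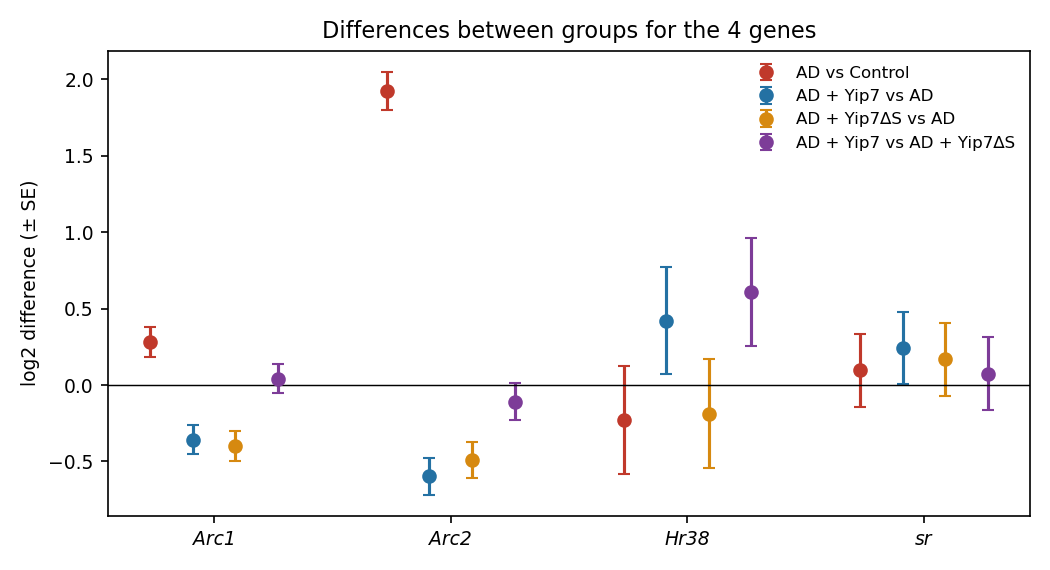
Log2 differences (± SE of the fit across all genes, 12 samples) of the 4 genes between AD and Control, between each Yip7 group and AD, and between the Yip7 groups. *Arc1* and *Arc2* are above 0 in AD vs Control and below 0 in both comparisons of a Yip7 group with AD, and the error bars of *Hr38* (SE 0.35 to 0.36) are longer than those of *Arc1* (0.10) or *Arc2* (0.12 to 0.13).

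*Hr38* gave no such order. Its level was 16.2, 11.5 and 20.3 CPM in Control and 22.3, 11.9 and 6.71 CPM in AD. In AD + Yip7 it was 13.1, 19.4 and 22.4 CPM, and in AD + Yip7∆S 14.8, 10.4 and 10.7 CPM. The AD group alone held nearly the whole range of the gene, with a 3.33-fold ratio of its highest to its lowest sample, and overlapped every other group.

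The means of *Hr38* were 16.0 ± 4.43 CPM in Control, 13.7 ± 7.96 for AD, 18.3 ± 4.76 for AD + Yip7 and 11.99 ± 2.44 for AD + Yip7∆S (SD, 3 samples each). The log2 difference was -0.23 (SE 0.35) between AD and Control, 0.42 (SE 0.35) between AD + Yip7 and AD, and -0.19 (SE 0.36) between AD + Yip7∆S and AD. The first of these turned to 0.11 without AD replicate 3 and was -0.77 without AD replicate 1. The second was 0.09 without AD replicate 3 and 0.97 without AD replicate 1. That of AD + Yip7∆S turned to 0.36 without AD replicate 1 and was -0.52 without AD replicate 3, so the sign or size of each comparison with AD depended on single AD samples. The largest difference of *Hr38* was between the Yip7 groups, with 0.61 (SE 0.35) and overlapping samples.

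*sr* likewise overlapped in every comparison. Its level was 19.6, 16.2 and 23.9 CPM in Control and 25.4, 25.3 and 13.2 CPM in AD. In AD + Yip7 it was 22.0, 24.7 and 28.9 CPM, and in AD + Yip7∆S 27.6, 25.9 and 18.3 CPM. Its lowest sample, like that of *Hr38*, was AD replicate 3, and the other AD samples were above all of Control.

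The means of *sr* were 19.9 ± 3.85 CPM in Control, 21.3 ± 7.03 for AD, 25.2 ± 3.51 for AD + Yip7 and 23.9 ± 4.95 for AD + Yip7∆S (SD, 3 samples each), and no neighbours in this order differed beyond their spread. The log2 difference was 0.10 (SE 0.24) between AD and Control, 0.24 (SE 0.24) between AD + Yip7 and AD, 0.17 (SE 0.24) between AD + Yip7∆S and AD, and 0.08 (SE 0.24) between the Yip7 groups. Without AD replicate 3 the first was 0.36, and those of AD + Yip7 and AD + Yip7∆S with AD turned to -0.01 and -0.09. The first turned to -0.05 without AD replicate 1 or 2 and to -0.03 without Control replicate 2, and the last turned to -0.08 without AD + Yip7∆S replicate 3 and to -0.04 without AD + Yip7 replicate 3.

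*Hr38* and *sr* varied more between samples of a group than most genes, and the Arc genes did not. The within-group SD on the log2 scale was 0.54 for *Hr38* and 0.36 for *sr*, which put them at the 98.9th percentile of 1827 and the 96.9th percentile of 1912 genes of a similar level. It was 0.09 for *Arc1* (15.0th percentile of 594 genes) and 0.14 for *Arc2* (33.4th percentile of 1495 genes). The spread of *Hr38* was well above its counting error, which was 5.95% at its lowest count of 282, while its coefficient of variation was 58.3% in AD, 27.7% in Control, 26.0% with Yip7 and 20.3% with Yip7∆S.

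The variation of *Hr38* and *sr* was also partly shared. Over the 12 samples their log2 levels had a Pearson r of 0.71 and a Spearman rho of 0.53, given as a description because the samples share library properties. Without the 2 samples farthest from the median of *Hr38*, AD replicate 3 and AD + Yip7 replicate 3, r was 0.37. Leaving them out also narrows the range of *Hr38*, so this fall cannot show how far the relation rested on these samples. After subtraction of the group means r was 0.83, and without the 2 farthest samples, AD replicates 1 and 3, it was 0.72. The other 5 pairs among the 4 genes had values between -0.24 and 0.14 after the same subtraction. There were 1.27 ± 0.128 *sr* reads per *Hr38* read in Control, 1.74 ± 0.528 for AD, 1.42 ± 0.231 for AD + Yip7 and 2.02 ± 0.413 for AD + Yip7∆S (SD, 3 samples each). AD and Control overlapped in this ratio, and the AD + Yip7∆S samples (1.86, 2.48 and 1.70) were all above the Control samples (1.22, 1.41 and 1.18).

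**Figure D3:**
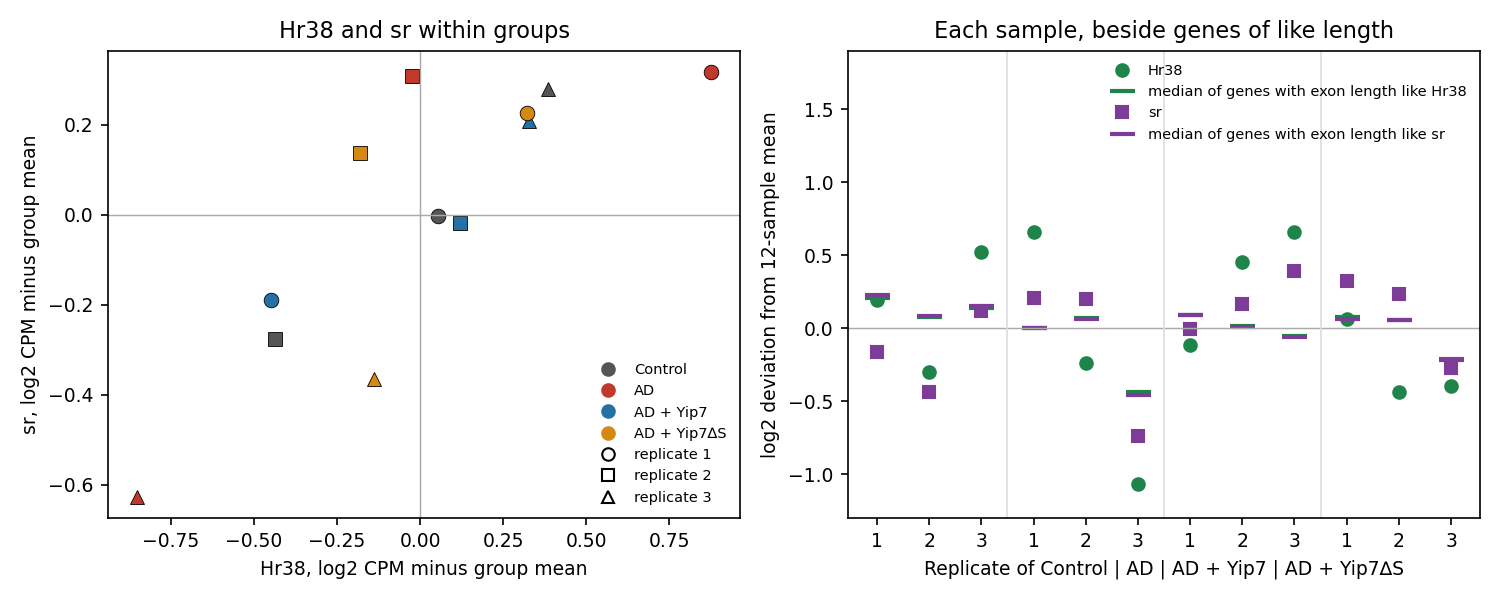
Left, log2 CPM of *Hr38* (horizontal) and *sr* (vertical) in each of the 12 samples after subtraction of the group mean. Right, deviation of *Hr38* (circles) and *sr* (squares) from their mean over the 12 samples beside the median deviation of genes of like exon length (bars), which is lowest in AD replicate 3 (-0.44 and -0.46).

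Long genes as a whole were low in AD replicate 3, and *Hr38* and *sr* are long. The median gene with over 8 kb of exon (481 genes) was 0.51 below its 12-sample mean on the log2 scale in this sample (deviation -0.51), while the median gene under 1 kb was 0.21 above. AD + Yip7∆S replicate 3 had a deviation of -0.26 and 0.19 for the same classes. Control went the other way. Its replicates 1 to 3 had 0.26, 0.06 and 0.16 over 8 kb, and -0.09, -0.04 and -0.07 under 1 kb. AD replicates 1 and 2 had -0.001 and 0.09 over 8 kb. In AD replicate 3, *Hr38* deviated by -1.07 and the 498 genes of like exon length by a median of -0.44, and *sr* deviated by -0.74 and its 434 genes of like length by -0.46. Both genes were therefore lower in this sample than genes of their length, by -0.63 and -0.28. With the median of genes of like length subtracted in each sample, the log2 difference between AD and Control was -0.09 for *Hr38* and 0.34 for *sr*, and r of the within-group deviations was 0.80. The same step gave 0.27 for *Arc1* and 1.75 for *Arc2*. What else in this library goes with its low long genes was not tested.

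Replicate 3 of Control, the sample labelled 14 days, was low in *Arc1* and high in *Arc2*, *Hr38* and *sr* within its group. Without it, the difference between AD and Control was 0.21 for *Arc1*, 2.00 for *Arc2*, -0.02 for *Hr38* and 0.25 for *sr*. The part of age was not tested.

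Other fly genes are reported to respond to neuronal activity together with *Hr38* and *sr*. Of 7 such genes, 0 were higher and 1 was lower in AD than in Control at an adjusted p under 0.05 in edgeR (3 at an unadjusted p under 0.05, and 3 lower and 0 higher in DESeq2), against 14.4% of all genes higher, 11.6% lower and 38.4% at an unadjusted p under 0.05. The edgeR counts are near these shares, which are also from edgeR. DESeq2 called 3232 of all genes in either direction, and its share of genes lower was not counted. Of the 7 differences, 6 were negative. Their median log2 difference was -0.09, and the median of all genes was -0.01. *CG14186*, the gene called, fell by 0.43 on the log2 scale (SE 0.14, adjusted p = 0.035), from 114 ± 13.7 CPM in Control to 84.1 ± 13.6 in AD (SD, 3 samples each). It was not called without Control replicate 2 (adjusted p = 0.055), Control replicate 3 (0.15), AD replicate 1 (0.066) or AD replicate 3 (0.12), nor with only the 6 samples of the comparison (0.077). It was lower in AD replicate 3 than in the other AD samples, at 69.2 CPM against 87.3 and 95.8.

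With Yip7 against AD, edgeR called 0 of the 7 genes (1 at an unadjusted p under 0.05, and 1 lower in DESeq2), and with Yip7∆S also 0 (0 at an unadjusted p under 0.05 and 0 in DESeq2). The gene with the unadjusted p was *cbt* (cabut), a zinc finger transcription repressor that responds to sugar feeding. Its level was 118, 116 and 102 CPM in Control, 93.6, 109 and 113 CPM in AD, 84.5, 83.6 and 79.4 CPM in AD + Yip7, and 104, 118 and 122 CPM in AD + Yip7∆S. All AD + Yip7 samples were thus below all samples of the other groups, with a log2 difference of -0.35 (SE 0.10) from AD and -0.47 (SE 0.10) from AD + Yip7∆S. Neither passed in edgeR (adjusted p = 0.11 and 0.14), and both passed in DESeq2 (adjusted p = 0.027 and 0.0027). Between the Yip7 groups edgeR likewise called 0 of the 7 genes, and *cbt* was the only one with an unadjusted p under 0.05 and the only one called by DESeq2.

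**Figure D4:**
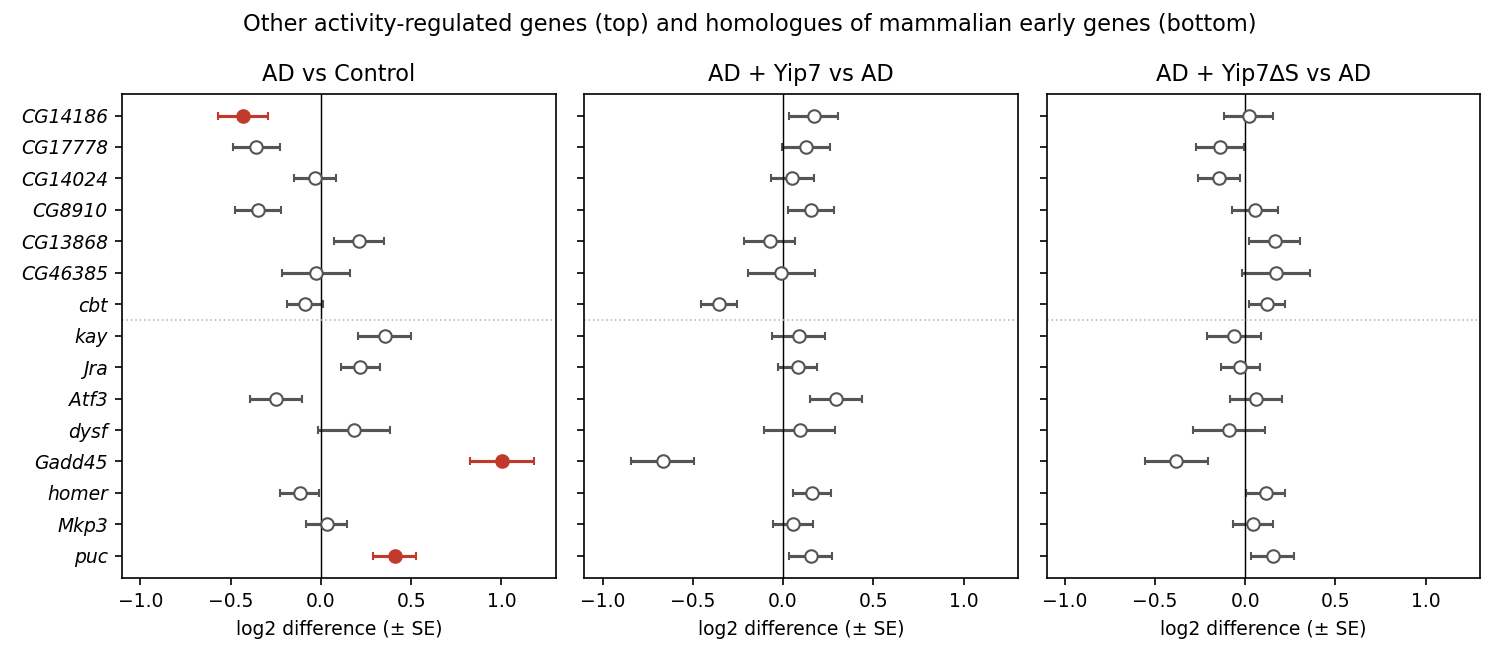
Log2 differences (± SE, 3 samples a group) of 7 other fly genes reported as activity-regulated (above the dotted line) and 8 fly homologues of mammalian early or activity-induced genes (below it) for AD against Control and for each Yip7 group against AD. Filled red points passed an adjusted p under 0.05 in edgeR, which were *CG14186*, *Gadd45* and *puc* in AD vs Control.

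Among 8 fly homologues of mammalian early or activity-induced genes, 2 were called higher in AD and 0 lower against Control, where 14.4% of all genes were higher and 11.6% lower, and the median log2 difference was 0.20. *Gadd45*, a stress-inducible gene, rose from 17.8, 16.7 and 15.8 CPM in Control to 32.8, 33.2 and 34.7 CPM in AD, a log2 difference of 1.00 (SE 0.18, adjusted p = 0.0013). *puc*, the phosphatase that restrains JNK signalling, rose by 0.41 (SE 0.12, adjusted p = 0.024), and this call was lost without replicate 1 or 2 of Control or of AD (adjusted p up to 0.078). *kay* (fly Fos) had a log2 difference of 0.35 (SE 0.15, adjusted p = 0.097) and *Jra* (fly Jun) of 0.22 (SE 0.11, adjusted p = 0.16). *kay* was called without AD replicate 3 (adjusted p = 0.046), without AD + Yip7∆S replicate 3 (0.021) and with upper quartile normalization (0.033). The study named *kay* and *puc* on these samples, so their direction is not independent evidence.

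*Gadd45* was the only gene of this list whose AD + Yip7 samples, at 19.9, 19.9 and 23.6 CPM, lay below all AD samples with an unadjusted p under 0.05. Its log2 difference from AD was -0.67 (SE 0.17, adjusted p = 0.082) in AD + Yip7 and -0.38 (SE 0.17, adjusted p = 0.32) in AD + Yip7∆S. The latter rested largely on AD + Yip7∆S replicate 3, which had 17.1 CPM against 31.0 and 29.2 in the other samples of its group, and was -0.17 without it. The difference with Yip7 passed in 4 of 19 alternatives, among them DESeq2 (adjusted p = 0.0096) and the fit without AD + Yip7∆S replicate 3 (0.0040). In both comparisons edgeR called 0 of the 8 genes, with 1 at an unadjusted p under 0.05 in each, and DESeq2 called 1 and 0. Between the Yip7 groups edgeR and DESeq2 called 0, with 0 at an unadjusted p under 0.05. In the plot of other activity-regulated genes, *Gadd45* is the point farthest from 0 in all 3 panels.

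Of 21 genes of calcium, cAMP and MAPK signalling, which link neuronal firing to transcription, 0 were higher in AD and 4 lower, against 14.4% and 11.6% of all genes, and the median log2 difference from Control was -0.34. DESeq2 called 9 of the 21 lower and 0 higher, and 3232 of all genes in either direction. The 4 genes were the sodium channel *para* (-0.68, SE 0.20, adjusted p = 0.024), the adenylyl cyclase *rut* (-0.56, SE 0.16, adjusted p = 0.022), the protein kinase A subunit *Pka-R2* (-0.53, SE 0.15, adjusted p = 0.019) and calmodulin, *Cam* (-0.40, SE 0.13, adjusted p = 0.040). None of these calls held in every alternative. *Cam* passed in 6 of 19, *Pka-R2* in 17, and *rut* and *para* in 15 each. The number of genes lower was between 0 (without Control replicate 1) and 8 (without AD replicate 2) when each sample was left out. It was 1 without AD replicate 3 or Control replicate 3. The summed level of 5 neuronal markers, none at 0 in any group, was also lower in AD (1739 to 2373 CPM) than in Control (2797 to 3016 CPM), and *para* is long. Glial markers were lower as well (531 to 631 CPM in AD and 794 to 854 in Control), with 4 of 5 called lower in edgeR against 1 of 5 for neurons and 11.6% of all genes. DESeq2 called 4 glial and 3 neuronal markers lower. In each set 4 of 5 had an unadjusted p under 0.05 in edgeR, against 38.4% of all genes. Markers of head fat body (75940 to 80315 against 96454 to 106177 CPM) and haemocytes (72.0 to 103 against 121 to 267 CPM) were also lower in AD. The sums of photoreceptor markers (52109 to 59659 against 59274 to 75362 CPM) and muscle markers (2105 to 2280 against 2255 to 2613 CPM) overlapped between AD and Control. The part of these cell types or of exon length, including the low long genes of AD replicate 3, in these differences was not tested. For each Yip7 group against AD edgeR called 0 of the 21, with 1 at an unadjusted p under 0.05 in each and 0 and 1 in DESeq2, and between the Yip7 groups it called 0, with 0 at an unadjusted p under 0.05 and 0 in DESeq2.

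Among 10 transcription factors and partners, 0 were called by edgeR or DESeq2 between AD and Control, with 2 at an unadjusted p under 0.05. All 10 had a negative difference, with a median of -0.30 beside -0.01 for all genes. The deviations by exon length given above were not subtracted here, so this median cannot be set against genes of like length. With the replicate number as a block edgeR called 3 of the 10 lower, and without AD + Yip7∆S replicate 3 it called 1. *CrebB*, the fly CREB that acts in long-term memory, had a log2 difference of -0.04 (SE 0.13, adjusted p = 0.84). *Mef2* had -0.31 (SE 0.14, adjusted p = 0.12, and 0.040 with the replicate number as a block) and *usp*, the partner of Hr38 protein in a heterodimer, had -0.11 (SE 0.09, adjusted p = 0.43). In the other 3 comparisons 0 were called by either tool and 0 had an unadjusted p under 0.05. With Yip7 against AD all 10 differences were positive (median 0.20), and with Yip7∆S 6 were positive and 4 negative. These comparisons share the AD samples with AD vs Control. Without AD replicate 3, *Mef2* had -0.15 in AD vs Control and 0.05 in AD + Yip7 vs AD. The part of this sample in the other genes of the list was not tested.

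Feeding genes are given because fly Arc1 acts in the starvation response. Of 8 genes that respond to feeding state, 3 were higher and 3 lower in AD than in Control, against 14.4% and 11.6% of all genes. The amylases *Amy-p* (4.34, SE 0.98, adjusted p = 0.0063) and *Amy-d* (3.26, SE 0.54, adjusted p = 0.00084) and the lipase *bmm* (0.71, SE 0.15, adjusted p = 0.0039) rose. The glucosidase *tobi* (-2.71, SE 0.55, adjusted p = 0.0033), the transcription factor *sug* (-1.93, SE 0.32, adjusted p = 0.00085) and the satiety signal *fit* (-1.93, SE 0.31, adjusted p = 0.00080) fell. With Yip7 against AD only *fit* was called, 1.41 higher (SE 0.31, adjusted p = 0.041), and this call was lost in 11 of 19 alternatives (adjusted p up to 0.15, without AD replicate 1). *fit* is also 1 of the 5 markers used here for head fat body, of which 4 were called higher in this comparison, against 0.945% of all genes. Their sums were 75940 to 80315 CPM in AD and 109238 to 125943 CPM in AD + Yip7. The part of fat body RNA in the *fit* values was not tested. Gut markers, which include *yip7* itself, summed to between 4.61 and 15.7 CPM in Control and between 225 and 347 CPM in AD, and their part in the amylase values was not tested. edgeR called 0 of the 8 for Yip7∆S against AD and between the Yip7 groups, with 3 and 0 at an unadjusted p under 0.05, and DESeq2 called 0 in both.

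Of 8 clock genes, examined because activity-regulated transcripts can follow the time of day, 1 was higher in AD than in Control and 0 were lower, against 14.4% and 11.6% of all genes. This was *vri*, which rose by 0.77 (SE 0.13, adjusted p = 0.00097). *per* had a log2 difference of 0.14 (SE 0.24, adjusted p = 0.71) and *tim* of 0.31 (SE 0.11, adjusted p = 0.067). *tim* was 0.42 lower in AD + Yip7 (log2 difference -0.42, SE 0.11, adjusted p = 0.091) and 0.37 lower in AD + Yip7∆S (-0.37, SE 0.11, adjusted p = 0.14) than in AD, and neither passed. DESeq2 called both (adjusted p = 0.012 and 0.040), and *tim* was called higher in AD than Control in 6 of 19 alternatives (adjusted p down to 0.019, with upper quartile normalization). In these comparisons edgeR called 0 of the 8, with 1 and 3 at an unadjusted p under 0.05 and 1 lower in DESeq2 in each. Between the Yip7 groups both tools called 0, with 0 at an unadjusted p under 0.05. The time of collection is not given in the sources used here.

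**Figure D5:**
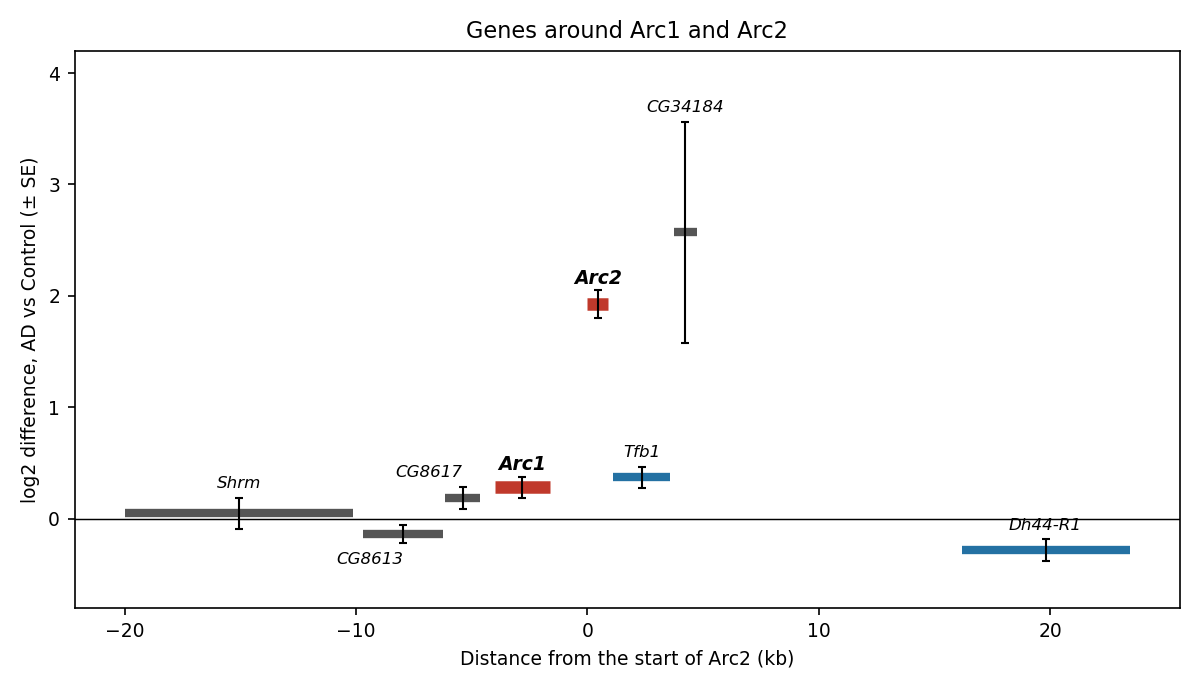
Log2 difference in AD vs Control (± SE, 3 samples a group) of *Arc1*, *Arc2* (red) and the 6 tested genes within 20 kb of *Arc2*, drawn at their distance from the start of *Arc2* and cut at 20 kb upstream. Blue genes passed an adjusted p under 0.05 in edgeR (*Tfb1* and *Dh44-R1*), grey genes did not, and *CG34184*, under 1 CPM in both groups, has the longest error bar.

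The genes around *Arc1* and *Arc2* did not share the size of the *Arc2* difference, except for 1 very low gene. Of 17 annotated genes within 20 kb of *Arc2*, other than *Arc1*, 6 were tested. Between AD and Control 1 was called higher and 1 lower, against 14.4% and 11.6% of all genes. *Tfb1*, a subunit of the general transcription factor TFIIH that starts 222 bases downstream on the same strand, rose by 0.37 in AD (SE 0.10, adjusted p = 0.012). *Dh44-R1*, a receptor for the diuretic hormone Dh44, fell by 0.28 (SE 0.10, adjusted p = 0.0496). *CG34184* had 0.304 ± 0.132 CPM in AD and 0.0480 ± 0.0634 in Control (SD, 3 samples each), a log2 difference of 2.57 (SE 0.99, adjusted p = 0.074). For each Yip7 group against AD edgeR called 0 of the 6, with 1 at an unadjusted p under 0.05 in each. This was *Tfb1* both times, with -0.22 (SE 0.09, adjusted p = 0.34) in AD + Yip7 and -0.32 (SE 0.10, adjusted p = 0.12) in AD + Yip7∆S. *Tfb1* thus had the same directions as *Arc1* and *Arc2* in these comparisons and in AD vs Control, at a size near that of *Arc1*. A pseudogene, *CR10102*, is annotated between *Arc1* and *Arc2*.

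Around *Hr38*, 6 of 11 annotated genes within 20 kb were tested. Of these, 1 was higher (*CG31678*, 0.46, SE 0.16, adjusted p = 0.044) and 2 were lower in AD than in Control, against 14.4% and 11.6% of all genes. Those lower were *Cen* (-0.34, SE 0.11, adjusted p = 0.047) and *CarT*, a carcinine transporter of photoreceptors (-0.42, SE 0.10, adjusted p = 0.011). *CG2617* overlaps the end of *Hr38* on the other strand with 3.30 ± 0.795 CPM in AD and 2.71 ± 0.575 in Control (SD, 3 samples each). The strand setting of the counting is not given in the sources used here, so reads of *Hr38* and *CG2617* in the overlap cannot be told apart. None of the 4 annotated genes around or within *sr* passed the filter.

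Over the 12 samples, the genes with log2 levels most like *Arc2* were *CG9154*, *CG30486*, *Mettl4* and *capt* (Pearson r 0.98 each) and *CG45603* (0.97). *Mettl4*, a methyltransferase of the METTL type, had a mean of 6.36 CPM for Control, 21.9 for AD, 17.7 for AD + Yip7 and 18.2 for AD + Yip7∆S. *capt*, a cyclase-associated protein that binds actin, had 132, 187, 166 and 173 CPM in the same order. These genes share with *Arc2* the order of the group means. After subtraction of the group means, r with *Arc2* was 0.59 for *CG9154*, 0.68 for *CG30486* and 0.56 for *Mettl4*, but -0.03 for *capt* and close to 0 for *CG45603*. *CG30486* was under 1 CPM in every group, and *CG45603* was at 0 CPM in Control and under 1 CPM in both Yip7 groups, so their values rest on few reads.

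The genes most like *Arc1* were *CG44251* (0.94), *CG12947* (0.92), *Jon99Ci* (0.90), *CG1146* (0.90) and *CG13728* (0.89). *Jon99Ci*, a digestive protease of the Jonah group, had 0.130 CPM for Control, 1.34 for AD, 0.116 for AD + Yip7 and 0.0569 for AD + Yip7∆S. *CG44251* and *CG13728* were under 1 CPM in every group, so their order over the samples rests on few reads.

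For *Hr38* they were *CG30419* (0.89), *lncRNA:CR45681* (0.85), *CG4577* (0.83), *CG11034* (0.82) and *magu* (0.80), and for *sr* *Mkp3* and *CG32369* (0.89 each), *Nrg* (0.88), *sima* and *CG11883* (0.86 each). *lncRNA:CR45681* was also under 1 CPM in every group. *Mkp3* encodes a phosphatase that acts on ERK, *Nrg* (neuroglian) a neural cell adhesion molecule and *sima* the fly HIF-1α. The 5 genes most like *sr* have between 3970 and 9991 exon bases, and long genes were low in AD replicate 3 as given above. *Hr38* was not among the 5 genes most like *sr*, nor *sr* among those most like *Hr38*.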

How the data were processed

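Per the submitters' notes and the study's methods, the authors trimmed reads with fastp, mapped them with HISAT2 2.1.0 to dm6 and ran HTSeq-count. The deposited table holds raw counts of 14162 genes, with sample totals (12 samples) between 38064884 and 41737332. The annotation and strand setting are not given in the sources used here. The notes also name StringTie 1.3.1.

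Genes were filtered with filterByExpr, scaled by TMM and fitted in edgeR 4.0.16 (R 4.3.3, glmQLFit and glmQLFTest, all 12 samples, no covariates), with Benjamini-Hochberg adjustment over 10577 genes and a threshold of 0.05. SEs come from the log2 difference and F. Log2 CPM used a prior count of 2. P-values measure only the spread between these samples, described as biological triplicates. Members, lists and tests were chosen with earlier results of these data known. Named genes are the 4 members, the 5 genes of highest Pearson r with each, up to 5 called genes per list, and *kay*, *Jra*, *cbt*, *CG14186*, *CrebB*, *Mef2*, *usp*, *per*, *tim* and *vri*; neighbours, markers and *Amy-p* were added after seeing values. *Btg* of the early-gene list was not in the table, and *CG30497* is listed under *CG46385*. Genome positions and exon lengths are from Ensembl BDGP6 (dm6), where 13934 symbols matched. The procedure was tested on simulated data. Alternatives were upper quartile and DESeq2 scaling, DESeq2 1.42.0, other filters, 6 samples a fit, a replicate block, each sample left out, and subtraction of genes of like length, added after seeing the data.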

Additional observations from a re-analysis of the deposited data

How the results depend on the processing

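*Arc1* and *Arc2* kept the directions of their non-overlapping differences in every alternative. For *Arc2* in AD vs. Control the log2 difference was between 1.75 (genes of like length subtracted) and 2.03 (without AD replicate 1), in AD + Yip7 vs. AD between -0.70 and -0.51, and in AD + Yip7∆S vs. AD between -0.59 and -0.41. For *Arc1* the ranges were 0.21 to 0.35, -0.42 to -0.32, and -0.45 to -0.38. When single samples were left out, *sr* changed sign in all 4 comparisons, as given with its values. *Hr38* changed sign in AD vs. Control and in AD + Yip7∆S vs. AD. It stayed positive in AD + Yip7 vs. AD (0.09 to 0.97) and between the Yip7 groups (0.44 to 0.80).

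Of the activity-regulated genes lower in AD than in Control, edgeR with only the 6 samples called 0, DESeq2 called 3, and leaving out each sample gave between 0 and 3, and for those higher between 0 and 1 (without AD replicate 3). Of the calcium, cAMP and MAPK genes lower in AD, only 6 samples gave 1, DESeq2 9 and the replicate block 8. Of the homologues of early genes higher in AD, leaving out each sample gave between 1 and 3. In AD + Yip7 vs. AD, DESeq2 called 1 activity-regulated gene lower, and upper quartile scaling, only 6 samples and DESeq2 each called 1 homologue of early genes lower, with between 0 and 1 when each sample was left out. Between the Yip7 groups DESeq2 called 1 activity-regulated gene lower. Over all genes, DESeq2 called 434 in AD + Yip7 vs. AD, where leaving out each sample gave between 83 and 263, and 483 in AD + Yip7∆S vs. AD, where it gave between 74 and 217 and only 6 samples gave 120. Between the Yip7 groups DESeq2 called 132, no filter 16, and leaving out each sample between 6 and 15. AD vs. Control ranged from 1910 (without Control replicate 3) to 3304 (without AD + Yip7∆S replicate 3). The cause was not tested.

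Samples with the same replicate number correlated, after subtraction of group means, between -0.21 and 0.29 in the 4 comparisons tested, and between -0.39 and 0.29 over every pair of groups. Samples with different numbers were not correlated for comparison, so these values cannot show whether the numbers pair the samples. With the replicate number as a block, 2712 genes were called between AD and Control, 149 with Yip7 against AD, 186 with Yip7∆S against AD and 6 between the Yip7 groups, and *Hr38* had a difference of -0.27 in AD vs. Control. Of the 10 transcription factors and partners, 3 were called lower in AD under this block. With 3 samples a group, the SEs of about 0.35 for *Hr38* and 0.24 for *sr* limit what their differences can show.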
